A study of Mus musculus with 21 samples.

Results

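The comparison is between M27H4 and M6, 2 cell lines from mammary gland tumours of C3(1)SV40 TAg mice, in their empty vector control cultures. All columns labelled as empty vector control of either line were taken, which gave 8 of the 21 columns and 5 of the 14 biological replicates of the series: 3 of M27H4 and 2 of M6. In these mice the viral T antigen, which binds p53 and Rb, is driven by the C3(1) promoter in mammary and prostate epithelium, and both lines come from carriers of this transgene. Both were grown in the same medium, DMEM with fetal calf serum. Neither control is labelled as treated for Esrp2-as, the long noncoding RNA that the series perturbs. The M6 control carries the label of an empty vector although the M6 treatment in the series is a knockdown with LNA gapmers, and the labels give neither the vector nor how it was delivered. Each line is a single cell line, so a difference between the lines cannot be told apart from a difference between any 2 tumours or clones of this model. The treated libraries of the same lines (Esrp2-as overexpression in M27H4, knockdown in M6) and the 3T3-L1 controls, a preadipocyte line with an empty vector, are used only beside single results.

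Epithelial cells hold on to each other through E-cadherin junctions, claudin-based tight junctions and keratin-anchored desmosomes. Transcription factors such as Grhl2 and Ovol2 keep this program on, and the repressors Zeb1, Zeb2, Snai1 and Snai2 bind CAGGTG E-boxes in epithelial promoters and turn it off, which occurs in epithelial-mesenchymal transition (EMT). Esrp1 and Esrp2 are RNA-binding proteins of epithelial cells that favour the epithelial exons of genes such as Fgfr2 and Cd44.

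Levels are CPM, the counts of a gene relative to its scaled library, given in replicate order (control 1, 2 and 3 of M27H4, control 1 and 2 of M6). Log2 differences are M27H4 over M6. CPM are not divided by gene length, so levels are compared between lines and not between genes. A gene is called higher or lower where the edgeR quasi-likelihood test over all genes gave an adjusted p under 0.05. Replicates are labelled biological, but no label says that they came from separate cultures, so p-values measure only the spread between these samples, which may be technical. The M27H4 controls held 60470462, 202697265 and 127647361 counts and the M6 controls 44613743 and 328493417.

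The lines differed in a large share of their transcriptome. M27H4 was higher in 3236 of 21237 genes tested (15.2%) and lower in 3184 (15.0%), so 30.2% of all genes were called, and the count of each list is read against these shares. By more than 2-fold (tested against that fold with glmTreat), 1426 genes (6.71%) were higher and 1622 (7.64%) lower. The median log2 difference over all genes was 0.02. The median fold of the called genes was 3.15 where M27H4 was higher and 4.39 where it was lower, and 278 and 161 of them had no count at all in the other line. Of the called genes 98.9% had replicate ranges that did not overlap, which describes the values that made the calls and gives no separate support. In the treated libraries, which are other cultures of the same lines, 14.9% of genes were called higher and 15.3% lower. There 5067 of the 6420 genes were called in the same direction and 8 in the opposite one.

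Markers of both lines were read before the results. The 12 mammary epithelial markers summed to 4524 and 6647 CPM in M6 and to 172, 258 and 303 CPM in M27H4, against 31.6 and 44.3 CPM in 3T3-L1. The 11 mesenchymal or fibroblast markers summed to 1921, 2197 and 2221 CPM in M27H4 and to 418 and 542 CPM in M6, against 7815 and 7355 CPM in 3T3-L1. M6 thus held the epithelial markers of a mammary tumour line, while M27H4 held less of them and stood between M6 and the preadipocyte line in both sums. Of the 12 epithelial markers, 5, 10 and 9 had at least 1 CPM in M27H4 controls 1, 2 and 3. In each M6 control 11 did, and in each 3T3-L1 control 8. Vim and Pdgfra made up most of the mesenchymal sum in M27H4, and Vim alone did in M6. Elf5, a luminal alveolar factor, was at 0 or under 0.2 CPM in all 5 replicates. In M27H4 control 1, 3 of the 12 epithelial markers (Cldn4, Cldn7 and Elf5) were at 0, in control 2 none and in control 3 only Elf5. In M6 control 1, 5 of the 11 mesenchymal markers were at 0, among them Col3a1 and Thy1. In cultures, fewer cells of a type and less RNA per cell cannot be told apart. Of the 7 endothelial markers only Kdr passed 1 CPM in M27H4, and Cdh5, the endothelial cadherin, was at 0 in all 5 replicates. The 9 leukocyte markers summed to 8.43 and 13.7 CPM in M6 and to 1.84, 2.67 and 2.10 CPM in M27H4, with 4 or 5 of them at 0 in each replicate. Most of the M6 sum came from Csf1r, the receptor for colony stimulating factor 1, at 7.29 and 11.3 CPM in M6 and 0.0488, 0.555 and 0.302 CPM in M27H4. Ptprc, which encodes CD45, stayed under 0.4 CPM, and the part of leukocytes in any result was not tested.

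Several replicates shared the LR number in their column names with libraries of other lines, and their lowest values moved with it. M27H4 control 1 has a number with no M6 library, whereas M27H4 control 2 shares both of its numbers with M6 and 3T3-L1 columns, and control 3 shares its number with M6 knockdown and 3T3-L1 columns. In 30 genes with at least 100 CPM in both M6 controls and under 0.5 CPM in M27H4 control 1, the median level was 0.0263% of the M6 level in M27H4 control 1, 1.04% in control 2 and 0.796% in control 3. In the reverse direction (8 genes) the M6 columns stood at 0.0916 and 0.0610% of the M27H4 level where the number held no M27H4 control, and at 0.304 and 0.460% where it held M27H4 control 2. In 13 genes abundant in 3T3-L1 and under 0.5 CPM in replicate 1 of both tumour lines, M27H4 controls 2 and 3 held 1.04 and 1.07% of the 3T3-L1 level and M6 control 2 held 0.506%. These gene sets were picked by a low value in replicate 1, so the low level of replicate 1 follows in part from that choice. The first column of M6 control 2, at 0.0610%, was not used in the choice. Levels near 1% of the other line in these replicates moved with the LR number, and its part in them was not tested. Within the 2 numbers that hold libraries of both lines, 3188 of the 3236 genes called higher and 3148 of the 3184 called lower kept their direction. Those columns are part of the libraries that gave the calls, so this agreement is largely built in and gives no separate support. For 50 of the 148 called genes that the naming rule gives, the fold moved by over 1.5 times when 1 control replicate was left out (26 genes without M6 control 2, 16 without M6 control 1, 15 without M27H4 control 2, 6 without M27H4 control 3 and 3 without M27H4 control 1). For such genes the levels are given and no single fold. Genes outside the naming rule were chosen after their values were seen, and of the 74 called ones given below with a direction, 61 kept their call with each control replicate left out. The other 13 are Cldn4, Spint2, Trp63, Postn, Tnc, Nt5e, Fgfr2, Notch1, Notch2, Trim33, Hoxb5, Krt6a and Gm12349. The pseudogene 2410024N13Rik, read beside Nras, is not counted among the 74.

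Epithelial junction genes were lower in M27H4 nearly throughout. Of 42 genes for epithelial adhesion and polarity, 35 were called lower and none higher, with a median log2 difference of -3.08 against 0.02 over all genes, where 15.0% of genes were called lower. Epcam, Cldn4 and Spint2 are shown first by their promoters, because their proximal sequences hold matches of the CAGGTG E-box. Each is the 250 bases before the RefSeq start site on GRCm38.p6, 5′ to 3′ on the gene's strand, with each match of CAGGTG or its reverse complement CACCTG in capitals. The genes were picked by hand among those with a match, and each is shown by its RefSeq entry with the most matches.
Epcam, chr17:87635729-87635978, plus strand: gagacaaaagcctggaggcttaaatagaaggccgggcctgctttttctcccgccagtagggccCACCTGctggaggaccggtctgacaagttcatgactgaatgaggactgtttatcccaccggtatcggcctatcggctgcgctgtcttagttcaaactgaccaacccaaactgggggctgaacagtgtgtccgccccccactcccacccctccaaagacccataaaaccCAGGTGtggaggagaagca
Cldn4, chr5:134946935-134947184, minus strand: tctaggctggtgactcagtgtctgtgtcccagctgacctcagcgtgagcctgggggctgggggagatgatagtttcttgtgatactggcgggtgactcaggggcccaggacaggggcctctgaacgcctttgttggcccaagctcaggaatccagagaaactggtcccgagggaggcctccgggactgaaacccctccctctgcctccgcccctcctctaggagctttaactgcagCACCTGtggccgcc
Spint2, chr7:29281978-29282227, minus strand: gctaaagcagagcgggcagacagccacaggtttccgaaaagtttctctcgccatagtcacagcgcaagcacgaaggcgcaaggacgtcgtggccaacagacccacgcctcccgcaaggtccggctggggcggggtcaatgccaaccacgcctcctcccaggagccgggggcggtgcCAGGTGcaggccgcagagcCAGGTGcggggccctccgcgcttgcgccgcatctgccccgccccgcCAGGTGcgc
Among the 23 of 42 adhesion genes with a RefSeq entry, 10 held a match (43.5%), against 5252 of 27025 genes in the table (19.4%). Of other lists, matches were found in 10 of 18 luminal genes (55.6%), 5 of 8 basal genes (62.5%) and 4 of 9 epithelial transcription factors (44.4%), and in 2 of 16 mesenchymal genes (12.5%) and 3 of 24 collagen and matrix genes (12.5%). Lists called in both directions also had high shares, with 11 of 26 Esrp targets (42.3%), 8 of 19 integrins and laminins (42.1%) and 7 of 22 p53 targets (31.8%), and the Notch list, with genes called only lower, had 5 of 16 (31.2%). A match says only that these letters are in the window.

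Epcam, an epithelial adhesion protein, stood at 624 and 837 CPM in M6 and 0.0488, 8.14 and 4.73 CPM in M27H4 (adjusted p = 0.00974). Cldn4, a tight junction claudin, stood at 267 and 459 CPM in M6 and 0, 4.65 and 4.82 CPM in M27H4 (adjusted p = 0.0171, and 0.0501 without M27H4 control 2 and 0.0508 without control 3). Spint2, a membrane inhibitor of serine proteases, stood at 73.0 and 160.0 CPM in M6 and 31.9, 25.2 and 37.0 CPM in M27H4 (adjusted p = 0.00373, and 0.0769 without M6 control 2). All M6 replicates stood above all M27H4 replicates in each of these genes, by a far smaller margin for Spint2. M27H4 control 1 lay far below its fellow replicates for Epcam and Cldn4 and not for Spint2, and M27H4 control 1 is the M27H4 library that shares its LR number with no M6 library.

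Cdh1, which encodes E-cadherin itself, was not lost from M27H4. Its level was 749.6 and 472 CPM in M6 and 113, 121 and 169 CPM in M27H4, a log2 difference of -2.18 (SE 0.30, adjusted p = 8.7e-05) or 4.55-fold, and the ranges did not overlap. Ctnna1, the alpha-catenin that links cadherins to actin, stood at 1346 and 1223 CPM in M6 and 476, 542 and 559 CPM in M27H4, 2.44-fold lower (adjusted p = 6.04e-05). Jup, which encodes plakoglobin, stood at 407 and 409.8 CPM in M6 and 37.9, 56.5 and 54.1 CPM in M27H4, 8.25-fold lower (adjusted p = 7.2e-07). These 3 adherens junction genes were lower in M27H4 by steps of different size.

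Tight junction and desmosome genes included larger differences. Tjp3, a scaffold of tight junctions, stood at 67.0 and 65.8 CPM in M6 and 1.04, 1.11 and 1.69 CPM in M27H4, 51.6-fold lower in M27H4 (log2 -5.69, SE 0.37, adjusted p = 1.84e-07). Cldn23, a claudin, stood at 23.1 and 18.6 CPM in M6 and 0.179, 0.409 and 0.261 CPM in M27H4, 70.9-fold lower (adjusted p = 2.89e-07). Marveld3, a tight junction membrane protein, stood at 28.7 and 28.5 CPM in M6 and 0.146, 0.372 and 0.432 CPM in M27H4, 86.9-fold lower (adjusted p = 5.06e-07). These 3 genes were low in M27H4 control 1 as in controls 2 and 3. Spint1, a partner inhibitor of Spint2, had the smallest p of the list (1.35e-08) at 135 and 116 CPM in M6 and 3.46, 5.29 and 3.61 CPM in M27H4, 30.4-fold lower. Dsp, which encodes the desmosomal plaque protein desmoplakin, stood at 247 and 120.1 CPM in M6 and 0.114, 1.35 and 1.46 CPM in M27H4. Dsg2, a desmosomal cadherin, stood at 319 and 172 CPM in M6 and 0, 1.77 and 1.57 CPM in M27H4. M27H4 control 1 was the lowest M27H4 replicate for both, as for Epcam. Cgn, which encodes the tight junction protein cingulin, stood at 1699.9 and 910.25 CPM in M6 and 4.34, 14 and 14.5 CPM in M27H4. The 7 members not called were Cldn12, Tjp1, Cgnl1, Ppl, Pard6b, Ctnnd1 and Nectin1.

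**Figure D1:**
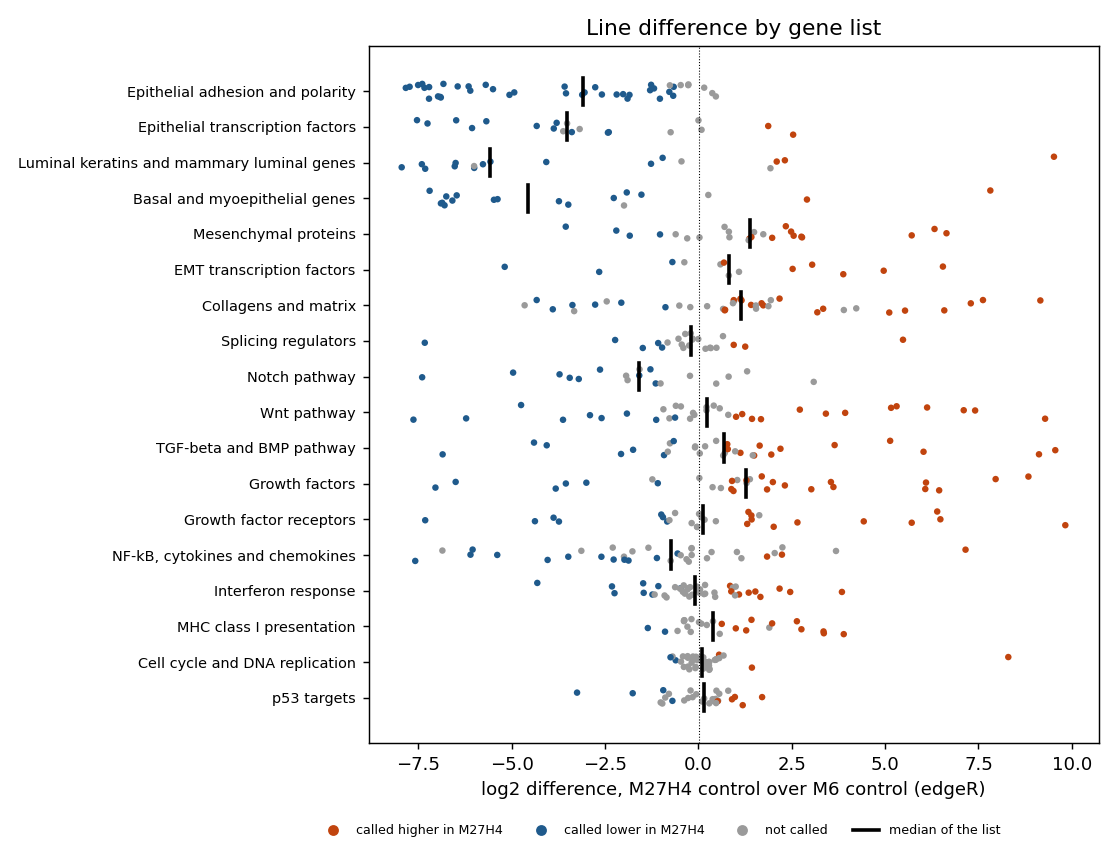
Log2 difference (x axis, M27H4 control over M6 control, edgeR) of each tested member of 18 gene lists (y axis), with orange-red for genes called higher in M27H4, blue for genes called lower, grey for genes not called, a black bar for the median of the list and a dotted line for the median of all genes tested. The medians run from -5.56 for the luminal genes and -4.55 for the basal genes to 1.40 for the mesenchymal proteins, while 5 of the 40 cell cycle genes are coloured.

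Of 19 epithelial transcription factors tested, 11 were called lower, 2 higher and 6 not called, with a median of -3.51. Elf3, an Ets factor of epithelia, stood at 19.8 and 18.9 CPM in M6 and 0.585, 0.314 and 0.269 CPM in M27H4, 51.0-fold lower in M27H4 (adjusted p = 1.33e-07). It was far lower in each M27H4 replicate. Ovol2, a repressor of Zeb1, stood at 7.20 and 9.73 CPM in M6 and 0.0488, 0.126 and 0.0897 CPM in M27H4. Grhl2, an activator of junction genes, stood at 140.0 and 117 CPM in M6 and 0.0325, 1.17 and 1.21 CPM in M27H4. Sox9, a progenitor factor, stood at 59.7 and 37.9 CPM in M6 and 10.9, 9.32 and 7.60 CPM in M27H4, 5.26-fold lower, and so kept a clear level in M27H4. The 2 called higher were Gata3 and Trp63. Gata3, the factor of luminal differentiation, stood at 162, 86.0 and 79.3 CPM in M27H4 and 19 and 18.5 CPM in M6, 5.81-fold higher (adjusted p = 1.83e-05). Trp63, the p63 factor of basal cells, stood at 6.84, 3.83 and 7.76 CPM in M27H4 and 1.90 and 1.47 CPM in M6 (adjusted p = 0.00717, and 0.0615 without M6 control 2). The ranges of both genes were separate.

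EMT transcription factors did not move as 1 group. Of 13 tested, 6 were called higher in M27H4 and 3 lower, against 15.2 and 15.0% of all genes. Zeb2 stood at 135, 157 and 117 CPM in M27H4 and 5.18 and 3.61 CPM in M6, 31.2-fold higher (log2 4.96, SE 0.30, adjusted p = 1.22e-07). Its relative Zeb1 stood at 8.39, 10.3 and 10.2 CPM in M27H4 and 1.43 and 1.89 CPM in M6, 5.76-fold higher (adjusted p = 2.36e-06). Snai2, which encodes Slug, stood at 12.6, 13.2 and 10.2 CPM in M27H4 and 1.01 and 0.656 CPM in M6, 14.7-fold higher (adjusted p = 4.61e-06). Snai1, which encodes Snail, went the other way: it stood at 0.179, 0.0943 and 0.212 CPM in M27H4 and 5.40 and 6.08 CPM in M6, 36.3-fold lower (adjusted p = 1.17e-05), and all replicates of either line kept to their own side. Prrx1, a mesenchymal homeobox factor, stood at 70.0, 50.6 and 59.9 CPM in M27H4 and 0.0621 and 1.05 CPM in M6. Twist1, Twist2, Tcf4 and Foxc2 were tested and not called. In the treated libraries Zeb1 had a log2 difference of 0.76 (adjusted p = 0.014), with 10.3, 7.92 and 9.79 CPM in M27H4 and 6.37 and 4.69 CPM in M6.

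Of 24 mesenchymal proteins, 11 were called higher, 4 lower and 9 not called, with a median of 1.40. Pdgfra, the receptor for platelet-derived growth factors that marks fibroblasts, stood at 898, 769.8 and 929 CPM in M27H4 and 17.2 and 15.8 CPM in M6, 52.5-fold higher (log2 5.71, SE 0.30, adjusted p = 3.58e-08). Lox, the lysyl oxidase that crosslinks collagen, stood at 243, 179 and 291 CPM in M27H4 and 1.30 and 3.34 CPM in M6. Both were scarce in M6. Spp1, which encodes osteopontin, stood at 8242, 10997 and 11808 CPM in M27H4 and 1179 and 1839 CPM in M6, 6.86-fold higher. Sparc, a matrix protein that binds collagen, stood at 842, 709 and 878 CPM in M27H4 and 123 and 166 CPM in M6, 5.60-fold higher. Vim, the intermediate filament of mesenchymal cells, was abundant in both lines, at 899, 1301 and 1128 CPM in M27H4 and 377 and 482 CPM in M6, 2.58-fold higher (log2 1.37, SE 0.20, adjusted p = 0.000159). The members lower in M27H4 were Postn, Tnc, Nt5e and Cdh2. Cdh2, which encodes N-cadherin, stood at 25.9 and 19.3 CPM in M6 and 3.82, 8.87 and 6.26 CPM in M27H4 (adjusted p = 0.00164). The calls of the other 3 ended without M6 control 1, with an adjusted p of 0.349 for Postn, 0.0915 for Tnc and 0.0976 for Nt5e, and the Postn call also without M27H4 control 1 (0.0532) or 2 (0.101) and the Nt5e call without M27H4 control 3 (0.0557). Fn1, which encodes fibronectin, stood at 2539.5, 1414 and 805 CPM in M27H4 and 708 and 242 CPM in M6 and was not called (adjusted p = 0.061).

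Some stromal genes gave values that moved with the LR number and not with the line. Col1a2, a chain of type I collagen, stood at 1.06, 35.7 and 38.9 CPM in M27H4 and 0.228 and 16.9 CPM in M6, and at 3625 and 2869 CPM in 3T3-L1. Cdh11, a fibroblast cadherin, stood at 0.0163, 6.53 and 7.15 CPM in M27H4 and 0.0207 and 3.03 CPM in M6, with 702 and 635 CPM in 3T3-L1. Both were near 0 in replicate 1 of each tumour line. Col3a1, Acta2, Nid1, Grem1 and Bgn showed the same order, none of them was called, and no statement on these stromal genes is made from replicates 2 and 3.

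**Figure D2:**
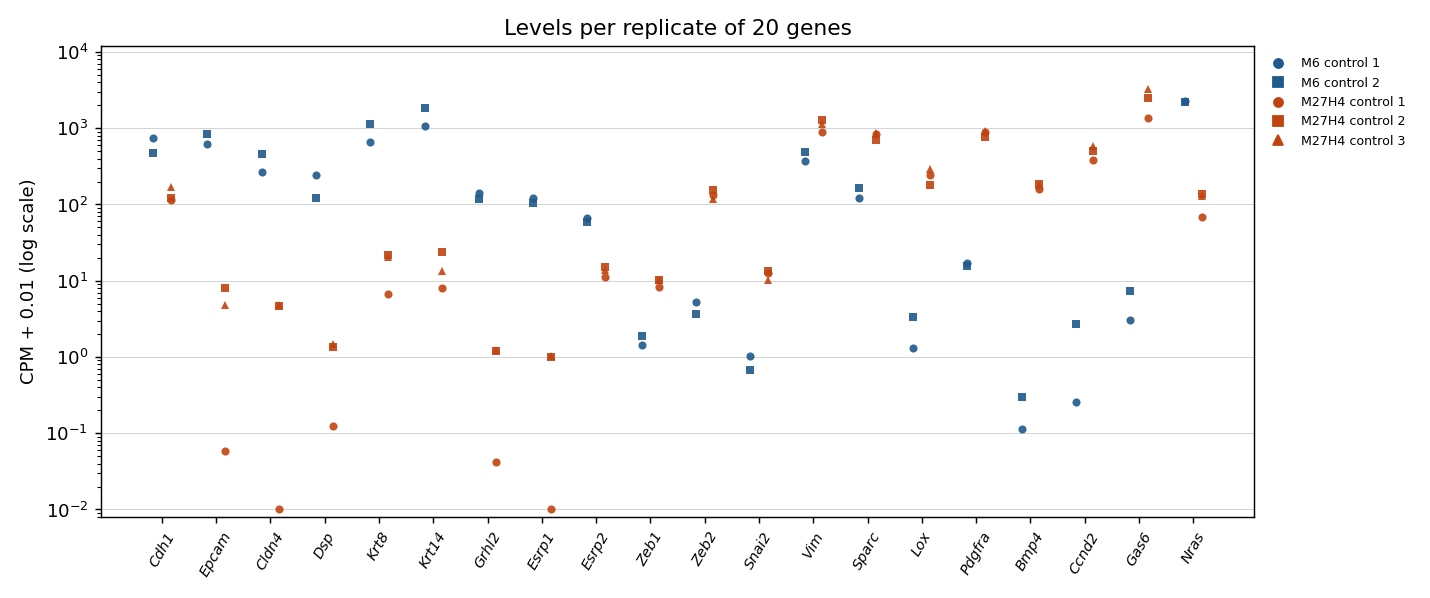
Level of 20 genes (x axis) in each control replicate (y axis, CPM plus 0.01 on a log scale), with M6 in blue, M27H4 in orange-red, and circles, squares and triangles for replicates 1, 2 and 3. The M6 points lie above the M27H4 points from Cdh1 to Esrp2 and for Nras, and below them from Zeb1 to Gas6, and the circle of M27H4 control 1 lies far under the other M27H4 points for Epcam, Cldn4, Dsp, Grhl2 and Esrp1.

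Most keratins and lineage genes of the mammary gland were called lower in M27H4. Mammary ducts have luminal cells, marked by Krt8 and Krt18, around the lumen and basal myoepithelial cells, marked by Krt5 and Krt14, beneath them. Of 17 luminal genes tested, 11 were called lower and 3 higher (median -5.56), and of 18 basal genes 14 lower and 2 higher (median -4.55), so both lineages were lower in the same line. Krt8 stood at 658 and 1120.3 CPM in M6 and 6.73, 21.7 and 20.6 CPM in M27H4, 54.4-fold lower (adjusted p = 6.66e-06). Its partner Krt18 stood at 752 and 1242 CPM in M6 and 36.2, 65.3 and 76.5 CPM in M27H4, 16.8-fold lower (adjusted p = 8.19e-07). M27H4 still held Krt18 in every replicate. The basal keratin Krt14 stood at 1078 and 1840.5 CPM in M6 and 8.11, 24.0 and 13.5 CPM in M27H4 (adjusted p = 1.05e-05). Its partner Krt5 stood at 2.94 and 4.02 CPM in M6 and 0.0488, 0.0367 and 0.147 CPM in M27H4, low in both lines. M6 thus held luminal and basal keratins side by side.

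Among other luminal genes, Aldh1a3, a retinal dehydrogenase, stood at 64.2 and 36.6 CPM in M6 and 0.0813, 0.576 and 0.163 CPM in M27H4. Prlr, the prolactin receptor, stood at 40.6 and 16.9 CPM in M6 and 0, 0.173 and 0.131 CPM in M27H4. The higher members were Esr1, Areg and Pgr. Esr1, the estrogen receptor, stood at 33.0, 24.7 and 32.6 CPM in M27H4 and 7.91 and 6.17 CPM in M6 (adjusted p = 0.000964). Areg, the EGF receptor ligand amphiregulin, stood at 52.3, 60.7 and 55.7 CPM in M27H4 and 12.7 and 9.86 CPM in M6, 4.99-fold higher (adjusted p = 1.06e-05). Pgr, the progesterone receptor, was low in M27H4, at 0.585, 0.529 and 0.767 CPM, and had no count in either M6 control, which makes it at least 73.2-fold higher against a floor of 3 counts over the M6 libraries. Among basal genes, Oxtr, the oxytocin receptor of myoepithelial cells, went against its list with 28.1, 23.1 and 29.7 CPM in M27H4 and 0 and 0.169 CPM in M6.

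Basement membrane adhesion differed in its subunits. Laminin 332, the ligand of hemidesmosomes, includes the chains Lama3 and Lamb3. Lamb3 stood at 359 and 268 CPM in M6 and 1.59, 4.38 and 4.57 CPM in M27H4, 88.5-fold lower in M27H4 (adjusted p = 1.17e-06). Lama3 stood at 159 and 106 CPM in M6 and 0.0488, 1.28 and 2.14 CPM in M27H4. Both chains were lower in each M27H4 replicate. Of 28 integrins and laminins, 10 were called lower and 8 higher. Itgb6, the epithelial beta 6 subunit, stood at 31.2 and 22.9 CPM in M6 and 0.553, 0.414 and 0.457 CPM in M27H4, 57.4-fold lower. Itgb3, the beta 3 subunit, stood at 148 and 92.1 CPM in M6 and 7.80, 13.7 and 15.4 CPM in M27H4, 9.74-fold lower. In the other direction, Itga11, a collagen receptor subunit of fibroblasts, stood at 14.2, 13.6 and 8.97 CPM in M27H4 and 0.849 and 0.617 CPM in M6, 17.0-fold higher (adjusted p = 3.82e-06).

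Matrix genes leaned higher in M27H4, with 17 of 38 collagens and matrix genes called higher and 6 lower (median 1.14). Col6a1, a chain of microfibrillar collagen VI, stood at 759.6, 923 and 876 CPM in M27H4 and 278 and 233 CPM in M6, 3.34-fold higher (adjusted p = 2.34e-05). Loxl3, a lysyl oxidase relative, stood at 98.5, 193 and 156 CPM in M27H4 and 15.6 and 17.1 CPM in M6, 9.10-fold higher. Col18a1, a basement membrane collagen, was among the lower genes, at 187 and 194 CPM in M6 and 15.6, 21.1 and 18.7 CPM in M27H4, 10.3-fold. Col5a3, a chain of collagen V, stood at 66.7 and 55.6 CPM in M6 and 6.44, 3.60 and 2.38 CPM in M27H4, 14.9-fold lower. Of the matrix proteases and their inhibitors, 7 of 28 were called higher and 11 lower (median 0.27, which turned to -0.30 without M27H4 control 1). Plat, the tissue plasminogen activator, stood at 377, 385 and 364 CPM in M27H4 and 31.4 and 38.8 CPM in M6, 10.7-fold higher (adjusted p = 1.33e-07). Plau, the urokinase, stood at 185 and 186 CPM in M6 and 14.5, 36.7 and 34.8 CPM in M27H4, 6.47-fold lower (adjusted p = 4.77e-05). The 2 plasminogen activators thus differed in opposite directions, with no overlap of ranges in either. Adam12, a membrane metalloprotease, stood at 153 and 138 CPM in M6 and 3.51, 6.81 and 5.08 CPM in M27H4, 28.3-fold lower. Mmp15, a membrane-type matrix metalloprotease, stood at 15.3 and 11.7 CPM in M6 and 0.211, 0.430 and 0.220 CPM in M27H4, 45.6-fold lower. Mmp19, a secreted one, stood at 52.2, 49.4 and 55.9 CPM in M27H4 and 15.1 and 14 CPM in M6, 3.60-fold higher.

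Esrp1 and Esrp2, the epithelial splicing regulators, were both lower in M27H4. Esrp1 stood at 122 and 106 CPM in M6 and 0, 0.985 and 1.03 CPM in M27H4 (log2 -7.32, SE 1.17, adjusted p = 0.00113), with 0 counts in M27H4 control 1 and near 1% of the M6 level in controls 2 and 3. Esrp2 stood at 65.9 and 58.8 CPM in M6 and 11.3, 15.0 and 13.7 CPM in M27H4, 4.68-fold lower (SE 0.21 around a log2 difference of -2.23, adjusted p = 3.89e-06). Esrp2-as, annotated as 1810019D21Rik on the opposite strand of Esrp2, stood at 2.96 and 2.42 CPM in M6 and 0.731, 1.25 and 0.889 CPM in M27H4 (2.76-fold lower, adjusted p = 0.0321). It overlaps Esrp2, and the strand setting of the counting is not given in the sources used here, so reads of both genes could be split between them. The Esrp2-as call ended without M27H4 control 1 or 3, or without either M6 control, and with limma voom (adjusted p = 0.203). Of 23 splicing regulators tested, 5 were called lower and 3 higher. Rbm47, an RNA-binding protein, stood at 50.3 and 33.9 CPM in M6 and 15.9, 16.3 and 12.8 CPM in M27H4, 2.80-fold lower. Ptbp3, a polypyrimidine tract binding protein, stood at 307 and 294 CPM in M6 and 144, 133 and 152 CPM in M27H4, 2.10-fold lower. Khdrbs3, an RNA-binding protein of the STAR family, went the other way at 146, 187 and 264 CPM in M27H4 and 4.87 and 4.07 CPM in M6, 44.6-fold higher (adjusted p = 8.21e-05). In the treated libraries Esrp1 stood at 0, 0.949 and 0.948 CPM in M27H4 and 96.1 and 95.6 CPM in M6, and Esrp2 at 9.31, 12.7 and 15.9 and 53.9 and 55.6 CPM, so the order of the lines was the same.

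Exons of Esrp targets are shown because their use separated the lines. Fgfr2 encodes the third immunoglobulin loop of its receptor in alternative exons, of which the one called IIIb belongs to epithelial receptors. This 148-base exon is given from GENCODE M21 transcripts on GRCm38, 5′ to 3′ on the transcript's strand, with no base marked by capitals.
Fgfr2 148-base exon, chr7:130199758-130199905, minus strand: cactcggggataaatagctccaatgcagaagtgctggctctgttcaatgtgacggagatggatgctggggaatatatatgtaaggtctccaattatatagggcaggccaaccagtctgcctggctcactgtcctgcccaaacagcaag
Inclusion is the share of counts from transcripts that hold an exon among those that hold or skip it. For the 148-base exon it was 2.68, 4.34 and 4.25% in M27H4 and 26.7 and 62.7% in M6. The ranges were separate, on 224, 1337 and 729 counts of such Fgfr2 transcripts in M27H4 and 120 and 493 in M6. The M6 value was unstable, since the 3 columns of M6 control 2 gave 88.9, 100 and 10.3%. The neighbouring 145-base exon of Fgfr2 (chr7:130198419-130198563) went the other way. It was included in 97.3, 95.7 and 81.9% in M27H4 and 1.67 and 1.01% in M6. For this exon the 3 columns of M6 control 2 gave 0, 0 and 2.56%.

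Cd44, which encodes the hyaluronan receptor, carries a row of variable exons, and Slk and Rac1 carry single cassette exons. The longest variable exon of Cd44 that separated the lines and the cassettes of Slk and Rac1 are given in full, all within the coding sequence of annotated transcripts.
Cd44 207-base exon, chr2:102831330-102831536, minus strand: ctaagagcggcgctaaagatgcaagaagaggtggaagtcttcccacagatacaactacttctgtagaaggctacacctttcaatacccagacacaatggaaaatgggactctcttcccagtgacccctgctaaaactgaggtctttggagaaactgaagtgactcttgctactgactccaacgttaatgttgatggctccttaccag
Slk 93-base exon, chr19:47627648-47627740, plus strand: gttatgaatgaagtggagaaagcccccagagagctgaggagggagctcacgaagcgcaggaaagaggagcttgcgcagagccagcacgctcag
Rac1 57-base exon, chr5:143509597-143509653, minus strand: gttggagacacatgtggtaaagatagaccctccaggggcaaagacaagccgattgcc
The Cd44 207-base exon was included in 10.6, 15.9 and 21.7% in M27H4 and 95.7 and 96.1% in M6. Its neighbour of 90 bases was included in 7.26, 11.4 and 19.1% in M27H4 and 94.0 and 95.3% in M6, and the variable exon of 117 bases in 0.392, 0.362 and 0.792% in M27H4 and 46.3 and 33.5% in M6. The Cd44 gene as a whole was not called (adjusted p = 0.392). The Slk 93-base exon was included in 19.8, 22.2 and 15.2% in M27H4 and 63.4 and 54.4% in M6. The Rac1 57-base exon was included in 37.2, 39.1 and 34.1% in M27H4 and 60.7 and 58.3% in M6. Inclusion was lower in M27H4 for each of these exons, with separate ranges, and a smaller step for Rac1. The 45-base exon of Nf2 (merlin) followed at 48.2, 36.6 and 46.3% in M27H4 and 76.4 and 78.9% in M6. The 108-base exon of Osbpl3 followed at 14.1, 11.2 and 32.8% in M27H4 and 47.2 and 41.7% in M6. The 75-base exon of Scrib, a polarity protein, went the other way at 65.5, 55.2 and 43.3% in M27H4 and 0.0463 and 19.9% in M6, with a wide spread within each line. In all, 153 internal exons of 28 target genes were measured, and 19 of them in 11 genes differed by at least 20 percentage points with separate ranges. That is 12.4% of the exons and 39.3% of the genes, against 2.25% of 14063 exons and 4.61% of 5078 genes outside the list, and 2.36% of all 14216 exons measured. These are shares of StringTie's transcript estimates, given as a description with no test.

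**Figure D3:**
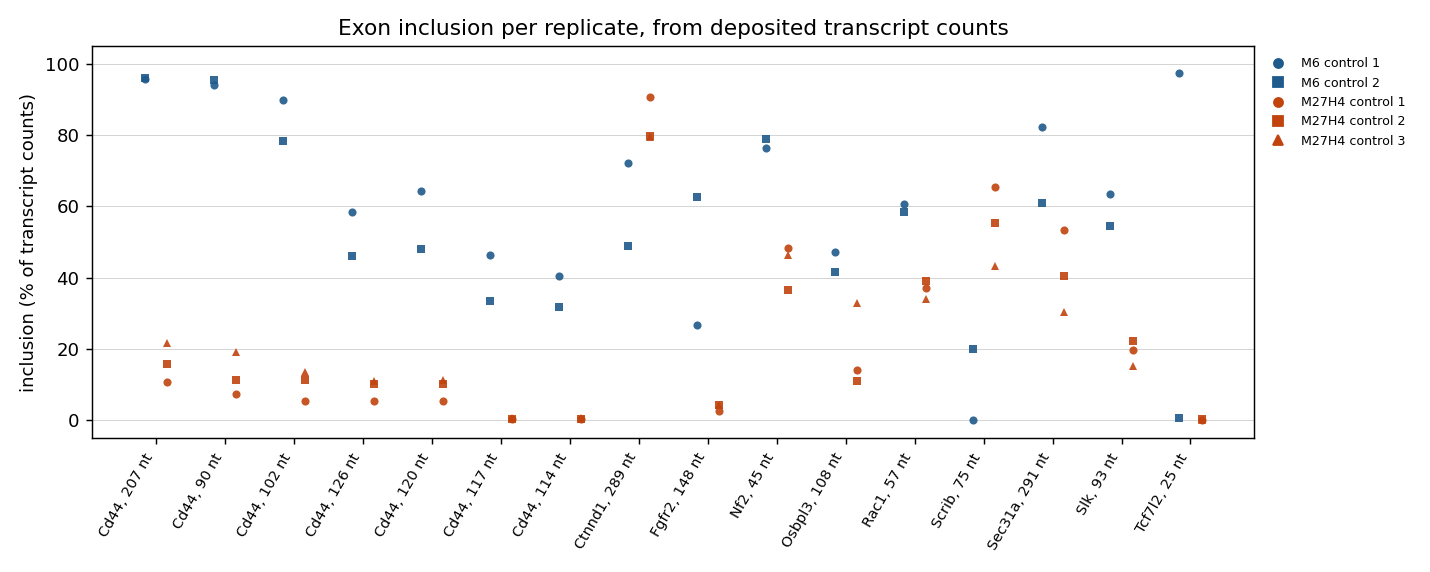
Inclusion of 16 of the 19 exons of Esrp target genes that differed by at least 20 percentage points with separate ranges (x axis, gene and exon length in nucleotides). The y axis gives the counts of transcripts that hold the exon as a percentage of those that hold or skip it. Each control replicate is shown, with M6 in blue, M27H4 in orange-red and circles, squares and triangles for replicates 1, 2 and 3. The Cd44 exon of 207 bases lies at 95.7 and 96.1% in M6 and between 10.6 and 21.7% in M27H4, and the Scrib exon of 75 bases lies in the reverse order.

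Transcript shares were tested over 5493 genes with limma on the arcsine square root of the share, and 26 genes (0.473%) were called. Among 26 Esrp targets tested of 32 listed, 4 were called (Cd44, Epb41l5, Rps24 and Fgfr2), and 7 had an unadjusted p under 0.05, which 7.77% of all tested genes had. Cd44-203 held 86.4, 79.7 and 74.0% in M27H4 and 4.01 and 3.73% in M6 (adjusted p = 0.00789). Epb41l5-202, of a protein that binds the polarity complex at the membrane, held 49.4, 48.2 and 56.6% in M27H4 and 2.58 and 2.29% in M6 (adjusted p = 0.00743). Rps24-201, of a ribosomal protein, held 27.5, 29.0 and 34.2% in M27H4 and 0.620 and 0.875% in M6 (adjusted p = 0.00743). Each M27H4 replicate lay above each M6 replicate in all 3 transcripts.

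Outside the Esrp targets, Sept9-201, of a septin of the cytoskeleton, held 83.1, 79.0 and 86.4% in M27H4 and 1.70 and 13.4% in M6 (adjusted p = 0.00591). Sept9-202 held 1.88, 6.16 and 2.68% in M27H4 and 96.3 and 81.2% in M6, so each line used 1 of the 2 transcripts for most of its Sept9 counts. Dtd1-201, of a tRNA-editing deacylase, held 98.4, 95.7 and 98.2% in M27H4 and 33.9 and 32.2% in M6 (adjusted p = 0.00743). Smarcd3-208, of a chromatin remodelling subunit, held 50.5, 56.2 and 59.4% in M27H4 and 0 and 0.0473% in M6 (adjusted p = 0.00743). Pde4d-201, of a cAMP phosphodiesterase, held 69.9, 62.3 and 73.5% in M27H4 and 0 and 1.61% in M6 (adjusted p = 0.0107). Of 10 called genes examined singly, only Sept9 kept its call in each of the 5 fits that left out 1 control replicate. Dtd1, Smarcd3, Epb41l5 and Rps24 kept it in 4 and lost it without M6 control 1, with adjusted p from 0.102 to 0.106 there. Cd44 kept it in 3 (lost without M6 control 1 or M27H4 control 2, highest adjusted p 0.106), Pde4d and Shroom3 in 1, and Eps8 and Fgfr2 in none. Shroom3 and Eps8 are not described further.

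Apart from exons, 10 of 32 Esrp target genes were called lower by their level and 6 higher. Epb41l5 stood at 68.2 and 66.3 CPM in M6 and 13.8, 15.2 and 20.4 CPM in M27H4, 4.09-fold lower in M27H4. Osbpl3, an oxysterol-binding protein, stood at 175 and 148 CPM in M6 and 73.9, 85.3 and 78.8 CPM in M27H4, 2.04-fold lower. Ralgps2 stood at 1.53 and 2.42 CPM in M6 and 0.0488, 0.283 and 0.310 CPM in M27H4, 8.74-fold lower. Fgfr2 as a gene stood at 4.14, 7.53 and 6.44 CPM in M27H4 and 2.71 and 1.83 CPM in M6 (adjusted p = 0.0254), a call that ended without M6 control 1 (0.0556), M6 control 2 (0.169), M27H4 control 2 (0.0766) or M27H4 control 3 (0.055).

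Of 28 growth factor receptors tested, 11 were called higher and 7 lower in M27H4 (median 0.13). Egfr, the EGF receptor, stood at 173 and 79.7 CPM in M6 and 11.8, 9.13 and 7.58 CPM in M27H4 (adjusted p = 9.51e-07). Erbb3, its kinase-poor partner, stood at 151 and 115 CPM in M6 and 5.96, 6.39 and 6.93 CPM in M27H4, 20.7-fold lower (log2 -4.37, SE 0.22, adjusted p = 3.09e-08). Erbb2 stood at 119.9 and 117 CPM in M6 and 58.1, 72.7 and 53.6 CPM in M27H4, 1.93-fold lower. Axl, the receptor for Gas6, stood at 831, 1032 and 790.3 CPM in M27H4 and 149.9 and 131 CPM in M6, 6.30-fold higher (adjusted p = 1.28e-06). Mertk, its relative, stood at 4.42, 8.92 and 7.68 CPM in M27H4 and 0.0621 and 0.0909 CPM in M6. Tyro3, the remaining member of the Axl family, stood at 38.9, 50.6 and 39.4 CPM in M27H4 and 46.9 and 50.3 CPM in M6 and was not called (adjusted p = 0.549). Kdr, the VEGF receptor best known from endothelium, stood at 32.1, 22 and 26.4 CPM in M27H4 and 0 and 0.0357 CPM in M6 (adjusted p = 1.99e-07). The other 6 endothelial markers stayed under 1 CPM in M27H4.

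Growth factors showed ligands and receptors that differed together and others that did not. Of 29 tested, 16 were called higher and 6 lower in M27H4 (median 1.29). Gas6, the ligand of Axl and Mertk, stood at 1379, 2488 and 3291 CPM in M27H4 and 3.06 and 7.28 CPM in M6 (adjusted p = 3.04e-05). Hgf, the ligand of Met, stood at 39.9, 29.8 and 35.1 CPM in M27H4 and 3.04 and 2.66 CPM in M6, 12.3-fold higher (adjusted p = 2.58e-07). Met itself was not called (adjusted p = 0.143). Among EGF receptor ligands the direction was mixed. Tgfa stood at 53.2 and 41.3 CPM in M6 and 6.29, 5.94 and 5.53 CPM in M27H4, 7.98-fold lower (adjusted p = 1.33e-07). Ereg, which encodes epiregulin, stood at 95.1, 77.3 and 63.8 CPM in M27H4 and 0.0621 and 0.454 CPM in M6 (adjusted p = 4.85e-06), and Areg was higher as given above. Pdgfb, a ligand of both PDGF receptors, stood at 51.2 and 40.7 CPM in M6 and 0.130, 0.629 and 0.702 CPM in M27H4, 90.2-fold lower. The line with more of the receptor Pdgfra thus had less of this ligand. Vegfc, a lymphatic growth factor, stood at 43.2 and 32.5 CPM in M6 and 4.10, 2.53 and 3.15 CPM in M27H4, 11.7-fold lower.

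In the TGF-beta and BMP pathway 12 of 30 genes were called higher in M27H4 and 7 lower (median 0.69). Bmp4, a BMP ligand, had the smallest adjusted p of the genes named (7.41e-09), at 158, 186 and 178 CPM in M27H4 and 0.104 and 0.292 CPM in M6, and its log2 difference ran from 9.21 to 10.72 with each control replicate left out. The activin subunits were lower. Inhba stood at 134 and 82.9 CPM in M6 and 5.33, 7.46 and 6.75 CPM in M27H4, 16.6-fold lower (adjusted p = 2.26e-07). Inhbb stood at 676 and 506 CPM in M6 and 45.9, 23.1 and 15.1 CPM in M27H4, 21.1-fold lower. Of the receptors, Tgfbr2 stood at 206, 279 and 237 CPM in M27H4 and 49.4 and 55.4 CPM in M6, 4.59-fold higher. The co-receptor Tgfbr3 stood at 205, 128 and 129 CPM in M27H4 and 5.53 and 3.28 CPM in M6, 35.2-fold higher (adjusted p = 1.62e-07). Of the known BMP targets, Id2 stood at 124, 111 and 162 CPM in M27H4 and 9.19 and 11.8 CPM in M6, 12.6-fold higher (adjusted p = 2.51e-07). Smad6, an inhibitor of the pathway that BMPs induce, stood at 43.8, 69.0 and 60.9 CPM in M27H4 and 16 and 21 CPM in M6, 3.12-fold higher (adjusted p = 8.21e-05). In the treated libraries Bmp4 stood at 181, 186 and 156 CPM in M27H4 and 0.359 and 0.448 CPM in M6.

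The Wnt list had 13 of 34 genes called higher in M27H4 and 9 lower (median 0.22). Feedback targets of beta-catenin were among the higher genes. Axin2, a scaffold of the destruction complex that Wnt signals induce, stood at 9.23, 11 and 5.80 CPM in M27H4 and 0.0828 and 0.0389 CPM in M6 (adjusted p = 2.28e-06). Notum, an enzyme that removes the lipid of Wnt proteins, stood at 157, 263 and 173 CPM in M27H4 and 2.17 and 3.43 CPM in M6, 69.8-fold higher (adjusted p = 3.74e-07). Rnf43, a ligase that removes Wnt receptors, stood at 9.31, 13.5 and 12.4 CPM in M27H4 and 0.269 and 0.367 CPM in M6, 35.8-fold higher (adjusted p = 5.39e-05). All 3 were scarce in M6. The secreted Wnt inhibitor Sfrp1 stood at 46.0, 31.6 and 21.4 CPM in M27H4 and 0.0414 and 0.0552 CPM in M6. Its relative Sfrp2 stood at 10.2, 8.93 and 7.40 CPM in M27H4 and 0 and 0.0844 CPM in M6. Nkd2, an inhibitor that binds Dishevelled, went the other way at 863 and 823 CPM in M6 and 0.569, 8.53 and 3.56 CPM in M27H4 (adjusted p = 0.00119).

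No Notch gene was called higher in M27H4 and 9 of 18 were called lower (median -1.58). The ligand Jag2 stood at 32.9 and 30.6 CPM in M6 and 0.926, 0.938 and 1.20 CPM in M27H4, 31.1-fold lower (adjusted p = 1.55e-07). The ligand Jag1 stood at 119.8 and 48.0 CPM in M6 and 7.18, 11.7 and 8.40 CPM in M27H4. Of the receptors, Notch3 stood at 125 and 70.2 CPM in M6 and 10.9, 7.0 and 4.49 CPM in M27H4, 13.1-fold lower (adjusted p = 1.76e-06). Notch2 stood at 619 and 363 CPM in M6 and 238, 223 and 146 CPM in M27H4 and Notch1 at 145 and 71.5 CPM in M6 and 41.5, 66.3 and 39.8 CPM in M27H4, and both calls ended without M6 control 1 (adjusted p = 0.0522 and 0.265). The target Nrarp, an inhibitor of Notch signals, stood at 151 and 142 CPM in M6 and 0, 1.60 and 0.865 CPM in M27H4. The target Hes1, a repressor, stood at 294 and 68.3 CPM in M6 and 22.5, 16.1 and 11.3 CPM in M27H4. The lower genes thus included ligands, receptors and targets, and M6 control 1 stood above M6 control 2 in Jag1, Hes1 and the 3 receptors.

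Neither of the genes for the proteins that T antigen binds was called. Trp53, which encodes p53, stood at 34.4, 31.8 and 23.9 CPM in M27H4 and 28.5 and 34.0 CPM in M6 (log2 -0.06, SE 0.21, adjusted p = 0.881), and its sign turned to 0.08 without M27H4 control 3, to 0.09 without M6 control 2 and to 0.19 with only replicate 1 of each line. Rb1 stood at 48.0, 28.8 and 37.3 CPM in M27H4 and 88.8 and 39.1 CPM in M6 (adjusted p = 0.114). Of 29 p53 targets 5 were called higher and 4 lower, with a median of 0.16 that turned to -0.07 without M27H4 control 2. Pmaip1, which encodes the apoptosis factor Noxa, stood at 19.2 and 12.8 CPM in M6 and 1.58, 1.87 and 1.61 CPM in M27H4, 9.48-fold lower. Perp, a p53 target that is also a desmosome protein, stood at 499.5 and 555 CPM in M6 and 83.7, 186 and 199 CPM in M27H4, 3.38-fold lower. Tigar, a regulator of glycolysis, stood at 18.8, 19 and 19.7 CPM in M27H4 and 5.53 and 6.19 CPM in M6, 3.27-fold higher. Of the inhibitors of cyclin-dependent kinases, Cdkn2a stood at 444, 322 and 631 CPM in M27H4 and 76.5 and 91.7 CPM in M6, 5.54-fold higher (adjusted p = 5.53e-05). Cdkn2c stood at 272, 269 and 261 CPM in M27H4 and 85.9 and 112 CPM in M6, 2.70-fold higher. The imprinted Cdkn1c stood at 3.93 and 5.68 CPM in M6 and 0.0488, 0.0314 and 0.0897 CPM in M27H4, 85.2-fold lower.

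Few genes of cell cycle and DNA replication were called. Of 40 tested, 3 were called higher and 2 lower in M27H4, against 30.2% of all genes called, and the median was 0.10. Mki67, the proliferation marker, stood at 528, 385 and 252 CPM in M27H4 and 676 and 269.9 CPM in M6 (adjusted p = 0.733). Top2a, a topoisomerase of dividing cells, stood at 1732, 1601 and 1378 CPM in M27H4 and 1578 and 1129.8 CPM in M6 (adjusted p = 0.633). The D cyclins were the exception. Ccnd2 stood at 388, 506 and 583 CPM in M27H4 and 0.248 and 2.70 CPM in M6 (adjusted p = 0.00102). Ccnd1 stood at 420.4, 986 and 736 CPM in M27H4 and 258 and 270.4 CPM in M6, 2.70-fold higher (adjusted p = 0.00532). Mcm2, of the replication helicase, passed the test at 1.47-fold higher (adjusted p = 0.0244) and Mybl2, a cell cycle transcription factor, at 1.67-fold lower (adjusted p = 0.0444). The Mcm2 call ended in 4 of 5 fits with 1 control replicate left out (all but that without M27H4 control 1, highest adjusted p 0.080) and the Mybl2 call in all 5 (highest adjusted p 0.147).

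Nras, which encodes a Ras GTPase, was the oncogene with the smallest p of the 26 listed, of which 6 were called higher and 5 lower. At chr3:103058285-103067914 it stood at 2297 and 2188 CPM in M6 and 68.8, 136 and 128 CPM in M27H4 (log2 -4.34, SE 0.26, adjusted p = 1.22e-07), 20.2-fold lower in M27H4. The 3T3-L1 controls held 164 and 164 CPM and the M6 knockdown cultures 2509 and 2554 CPM, so M6 stood apart from both other lines in all its replicates. Hras was not called. Genes beside Nras were then read, chosen after the value of Nras was seen. Gm43062, the next gene downstream, stood at 13.2 and 7.70 CPM in M6 and 0.504, 0.430 and 0.253 CPM in M27H4. Dennd2c, a Rab exchange factor, stood at 93.8 and 75 CPM in M6 and 8.04, 10.3 and 9.24 CPM in M27H4, 9.18-fold lower (adjusted p = 2.45e-07). Bcas2, a spliceosome component, stood at 599.6 and 679.5 CPM in M6 and 59.0, 74.3 and 89.1 CPM in M27H4, 8.62-fold lower (adjusted p = 3.43e-07). On the other side Sike1 stood at 27.6 and 29.5 CPM in M6 and 29.6, 24.7 and 25.3 CPM in M27H4 (adjusted p = 0.723). Farther downstream Trim33 stood at 110.0 and 73.5 CPM in M6 and 61.3, 59.2 and 55.9 CPM in M27H4 (adjusted p = 0.0247), a call that ended without M6 control 1 (0.353), M27H4 control 2 (0.0578) or M27H4 control 3 (0.0715). Ampd1, between Gm43062 and Dennd2c, stayed under 1 CPM in all replicates and was not called (adjusted p = 0.0527). The pseudogene 2410024N13Rik, beyond Bcas2, stood at 0.870 and 0.681 CPM in M6 and 0, 0.0105 and 0 CPM in M27H4 (adjusted p = 0.000176). It was thus under 1 CPM in all replicates, with 2 counts in the M27H4 controls. Of the genes read here, those that differed by over 5-fold thus lay in 1 stretch from Nras to 2410024N13Rik.

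**Figure D4:**
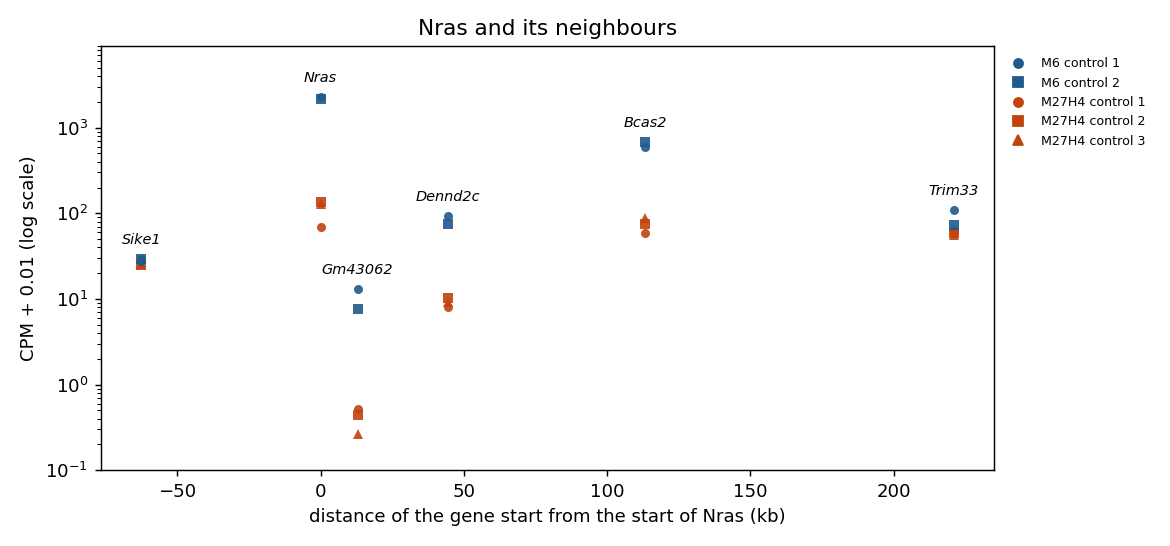
Level of Nras and of 5 genes near it (Sike1, Gm43062, Dennd2c, Bcas2 and Trim33) (y axis, CPM plus 0.01 on a log scale) by the distance of each gene's start from the start of Nras (x axis, kb) in each control replicate, with M6 in blue, M27H4 in orange-red and circles, squares and triangles for replicates 1, 2 and 3. Nras, Gm43062, Dennd2c and Bcas2 lie higher in M6, while the points of both lines overlie each other for Sike1.

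Of the other oncogenes, Mycl, a Myc relative, stood at 22.9 and 18.4 CPM in M6 and 0.0488, 0.424 and 0.147 CPM in M27H4. Ets1, a transcription factor, stood at 224 and 204 CPM in M6 and 60.9, 62.2 and 70.0 CPM in M27H4, 3.32-fold lower in M27H4. Myc itself was not called.

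Inflammatory genes leaned lower in M27H4, with 12 of 35 genes of NF-kB, cytokines and chemokines called lower and 3 higher (median -0.74). Tnf, the cytokine tumour necrosis factor, stood at 60.2 and 28.6 CPM in M6 and 0.179, 0.241 and 0.261 CPM in M27H4 (adjusted p = 1.33e-07). The chemokine Ccl20 stood at 13.7 and 8.52 CPM in M6 and 0.276, 0.0734 and 0.171 CPM in M27H4, 68.5-fold lower. Cxcl16, a membrane-bound chemokine, stood at 67.6 and 80.3 CPM in M6 and 11.2, 9.17 and 16.4 CPM in M27H4, 6.03-fold lower (adjusted p = 3.9e-06). Cxcl12, a stromal chemokine, stood higher, at 428, 206 and 266 CPM in M27H4 and 0.911 and 3.17 CPM in M6 (adjusted p = 3.37e-05). Saa3, an acute phase protein, stood at 881, 0.278 and 0.636 CPM in M27H4 and 24.2 and 21.5 CPM in M6 and was not called (adjusted p = 0.475). Lcn2, which encodes the iron carrier lipocalin 2, stood at 1506, 17.3 and 16.2 CPM in M27H4 and 883 and 518 CPM in M6 and was not called (adjusted p = 0.9). In both genes M27H4 control 1 stood above M6 and the other M27H4 controls stood below it.

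Interferon response genes went both ways, with 9 of 42 called higher and 8 lower (median -0.10). Parp9 stood at 219 and 165 CPM in M6 and 57.1, 74.3 and 75.5 CPM in M27H4, 2.78-fold lower (adjusted p = 4.25e-05). Dhx58, a sensor of viral RNA, stood at 28.1, 25.8 and 29.2 CPM in M27H4 and 7.08 and 3.10 CPM in M6. Oas3, an oligoadenylate synthetase, stood at 11.9 and 3.35 CPM in M6 and 0.0975, 0.529 and 0.457 CPM in M27H4. Genes for antigen presentation on MHC class I leaned higher, with 10 of 25 called higher and 2 lower (median 0.39). Tap2, a subunit of the peptide transporter, stood at 202, 260.5 and 315 CPM in M27H4 and 38.4 and 44.9 CPM in M6, 6.23-fold higher (adjusted p = 8.12e-06). Tap1, its partner, stood at 58.8, 76.3 and 64.2 CPM in M27H4 and 24.3 and 25.2 CPM in M6, 2.68-fold higher. Nlrc5, the transactivator of MHC class I genes, stood at 14.2, 9.38 and 6.71 CPM in M27H4 and 1.14 and 0.857 CPM in M6, 10.3-fold higher (adjusted p = 9.42e-06). The class I genes H2-K1 and H2-D1 and their light chain B2m were not called.

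In cholesterol and fatty acid synthesis 10 of 31 genes were called higher and 3 lower (median 0.36). Sqle, the squalene epoxidase, stood at 473, 432 and 496 CPM in M27H4 and 162 and 202 CPM in M6, 2.57-fold higher (adjusted p = 6.05e-05). In hypoxia and glycolysis 8 of 29 were called higher and 4 lower (median 0.49). Car12, a membrane carbonic anhydrase, stood at 315 and 269 CPM in M6 and 4.16, 6.67 and 5.39 CPM in M27H4, 53.9-fold lower in M27H4 (log2 -5.75, SE 0.30, adjusted p = 4.16e-08). Ldhb, the heart-type subunit of lactate dehydrogenase, stood at 44.5 and 63.6 CPM in M6 and 4.11, 3.19 and 4.78 CPM in M27H4, 13.4-fold lower. In antioxidant and drug export genes 12 of 32 were called higher and 6 lower (median 0.41). Gsr, the glutathione reductase, stood at 476 and 752 CPM in M6 and 139, 184 and 171 CPM in M27H4, 3.73-fold lower. Gclm, of glutathione synthesis, stood at 53.7, 43.2 and 44.9 CPM in M27H4 and 15.8 and 15.3 CPM in M6, 3.04-fold higher. The drug exporter Abcb1b stood at 45.3, 52.5 and 41.9 CPM in M27H4 and 14.9 and 15.5 CPM in M6, 3.07-fold higher. In prostaglandin and hyaluronan metabolism 2 of 21 genes were called higher and 5 lower. Hpgd, which degrades prostaglandins, had no count in the 3 M27H4 controls and 3.23 and 1.25 CPM in M6 (adjusted p = 7.73e-05). Ptger1, a prostaglandin E receptor, stood at 4.13, 5.16 and 5.18 CPM in M27H4 and 0.580 and 0.406 CPM in M6, 9.99-fold higher. Ptger2, another one, stood at 6.50 and 6.57 CPM in M6 and 1.33, 1.06 and 1.00 CPM in M27H4, 5.79-fold lower.

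Of 12 tested fibroblast and adipocyte markers, 5 were called higher and 1 lower. Lpl, the lipoprotein lipase, stood at 173, 111 and 248 CPM in M27H4 and 0.207 and 0.584 CPM in M6, against 82.1 and 119 CPM in 3T3-L1. Cebpa, an adipogenic factor, stood at 14.9, 27.8 and 34.0 CPM in M27H4 and 1.72 and 1.80 CPM in M6, 14.5-fold higher. Adipoq and Plin1, genes of mature fat cells, did not pass the filter on low counts. Over the 7 adipocyte markers the sums were 20.1, 30.6 and 37.6 CPM in M27H4, 6.50 and 7.62 CPM in M6 and 25.7 and 27.3 CPM in 3T3-L1.

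The 12 protein-coding genes with the largest differences in each direction, at a mean of at least 5 CPM in the higher line, belonged to no single list. Lowest in M27H4 were Kctd12, Prdm1, Rbp4, Epha7, Sulf1, Mmp13, Plce1, Cxcl15, Dtx1, Prlr, Pde9a and Igfbp5. Mmp13, the collagenase 3 gene, stood at 403 and 119 CPM in M6 and 0.0813, 1.25 and 1.26 CPM in M27H4. Prdm1, which encodes the repressor Blimp1, stood at 17.2 and 2.80 CPM in M6 and 0, 0.0419 and 0.0245 CPM in M27H4. Igfbp5, a carrier of insulin-like growth factors, stood at 34.2 and 22.9 CPM in M6 and 0, 0.257 and 0.0489 CPM in M27H4. In these genes each M6 replicate stood far above each M27H4 replicate, and M6 control 1 above M6 control 2. Epha7, an ephrin receptor, stood at 10.3 and 5.35 CPM in M6 and 0, 0.0157 and 0.0489 CPM in M27H4. Dtx1, a ligase of the Notch pathway, stood at 17.7 and 12.4 CPM in M6 and 0, 0.0996 and 0.0489 CPM in M27H4. Kctd12 stood at 96.0 and 47.0 CPM in M6 and 0.618, 0 and 0 CPM in M27H4, and its call ended in a fit of the 2 control groups alone (adjusted p = 0.0705).

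Highest in M27H4 were Mrvi1, Tnfrsf11b, Hoxb9, Bmp4, Colec10, Fhl1, Kdr, Insc, Ism1, C4bp, Grk3 and Chst8. The last 3 had no count in M6, and against the floor of 3 counts Grk3, a kinase of G protein-coupled receptors, was at least 786-fold higher and Chst8, a sulfotransferase, at least 1029-fold. In M27H4, Grk3 stood at 3.74, 7.61 and 6.52 CPM. Chst8 stood at 3.46, 9.02 and 10.7 CPM. C4bp, a complement regulator, stood at 5.15, 3.11 and 12.3 CPM, highest in control 3. Fhl1, a LIM domain protein, stood at 44.5, 82.6 and 67.9 CPM in M27H4 and 0 and 0.104 CPM in M6. Insc, which orients the mitotic spindle, stood at 24.8, 23 and 20.9 CPM in M27H4 and 0 and 0.0260 CPM in M6. Tnfrsf11b, which encodes the decoy receptor osteoprotegerin, stood at 37.1, 48.0 and 134 CPM in M27H4 and 0 and 0.130 CPM in M6. Colec10, a collectin, stood at 9.88, 20.3 and 103 CPM in M27H4 and 0 and 0.0714 CPM in M6. M27H4 control 3 was the highest replicate for both of these genes, which lie near each other on chromosome 15. Mrvi1 and Ism1 had 3 counts in all M6 libraries together, and their M27H4 levels were 6.79, 3.44 and 7.74 and 24.8, 11.8 and 18.8 CPM.

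Hox genes give cells their position along the body axis. Of 26 tested, 10 were called lower and 5 higher. In the Hoxa cluster Hoxa2 to Hoxa5 were lower in M27H4, with Hoxa4 at 2.61 and 2.85 CPM in M6 and 0, 0.0472 and 0.0245 CPM in M27H4. In the Hoxb cluster Hoxb2 stood at 10.4 and 15.3 CPM in M6 and 0.0488, 0.157 and 0.147 CPM in M27H4, 101-fold lower (adjusted p = 1.71e-06). Hoxb3 stood at 6.79 and 5.30 CPM in M6 and 0.634, 0.723 and 0.628 CPM in M27H4. Hoxb4 stood at 7.78 and 9.76 CPM in M6 and 3.82, 3.80 and 3.31 CPM in M27H4. From Hoxb5 to Hoxb9 the order turned. Hoxb5 stood at 0.211, 0.210 and 0.131 CPM in M27H4 and 0 and 0.00974 CPM in M6, under 1 CPM in both lines, and its call ended in 4 of 5 fits with 1 control replicate left out (highest adjusted p 0.146; it held only without M27H4 control 3). Hoxb6 stood at 3.87, 4.98 and 5.02 CPM in M27H4 and 0 and 0.0195 CPM in M6. Hoxb7 stood at 2.15, 1.77 and 2.59 CPM in M27H4 with no count in M6, at least 249-fold higher. Hoxb8 stood at 1.67, 1.81 and 1.56 CPM in M27H4 with no count in M6, at least 202-fold higher. Hoxb9 stood at 29.6, 39.0 and 31.3 CPM in M27H4 and 0 and 0.0552 CPM in M6. Within 1 cluster M6 thus held more of the genes from Hoxb2 to Hoxb4 and M27H4 of those from Hoxb6 to Hoxb9, while Hoxb13 had no count in any of the 5 replicates. In the Hoxc cluster Hoxc5 had no count in M27H4 and 0.373 and 0.837 CPM in M6 (adjusted p = 0.000125).

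**Figure D5:**
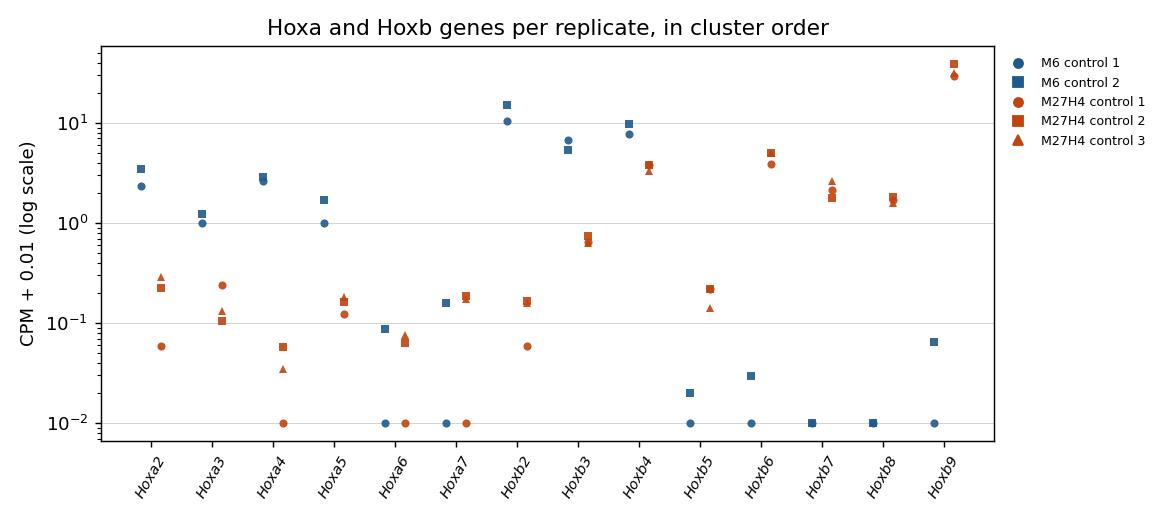
Level of tested genes of the Hoxa and Hoxb clusters from Hoxa2 and Hoxb2 on, other than Hoxb13, (x axis, in cluster order) in each control replicate (y axis, CPM plus 0.01 on a log scale), with M6 in blue, M27H4 in orange-red and circles, squares and triangles for replicates 1, 2 and 3. M6 lies above M27H4 from Hoxa2 to Hoxa5 and from Hoxb2 to Hoxb4, and below it from Hoxb5 to Hoxb9.

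Other neighbouring genes also differed together. Counting stretches of at least 3 neighbouring genes with at least 1 CPM in a line that were all called more than 2-fold in 1 direction gave 77 runs, 49 lower and 28 higher in M27H4. The longest held 7 genes. On chromosome 15, from 101643020 to 102032027, Gm5478, Krt6b, Krt6a, Krt5, Krt79, Krt8 and Krt18 were lower, and on chromosome 11, from 100140810 to 100293711, Krt19, Gm11597, Krt14, Krt16, Krt17, Krt42 and Gm12349 were lower. The Krt6a call ended without M27H4 control 2 (adjusted p = 0.0511) and the Gm12349 call without M6 control 2 (0.0612). On chromosome 5, from 105014150 to 105346472, Gbp8, Gbp9, Gbp4, Gm43302, Gbp10, Gbp6 and Gbp11, guanylate-binding proteins that interferon induces, were higher, with Gbp9 at 112, 172 and 202 CPM in M27H4 and 22.4 and 19.6 CPM in M6. Guanylate-binding protein genes are similar copies between which reads could be split. Mmp13, Mmp12, Mmp3 and Mmp10 on chromosome 9 were lower together. Members of a run share a position and often a family, and they are not independent of each other.

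Imprinted genes, of which 1 parental copy is silent, had 6 of 30 called higher and 6 lower (median 0.31). Kcnq1ot1, the noncoding RNA that silences its neighbours on chromosome 7, stood at 10.8, 11.3 and 5.95 CPM in M27H4 and 0 and 0.227 CPM in M6 (adjusted p = 4.67e-05). Its imprinted neighbour Cdkn1c was lower in M27H4 as given above. Phlda2, another neighbour, stood at 3.48 and 5.81 CPM in M6 and 0, 0.0576 and 0.0245 CPM in M27H4. Slc22a18, a transporter gene beside it, stood at 2.36 and 3.01 CPM in M6 and 0.0488, 0.0157 and 0.106 CPM in M27H4. In the adjacent domain H19, a noncoding RNA, stood at 31.4 and 24.3 CPM in M6 and 0, 0.377 and 0.0245 CPM in M27H4. Igf2, the fetal growth factor, stood at 5.18, 1.60 and 4.0 CPM in M27H4 and 0 and 0.0714 CPM in M6. In both domains the noncoding RNA and the coding genes named differed in opposite directions between the lines.

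By chromosome, the median log2 difference ran from -0.47 on chromosome 18, where 37.4% of tested genes were called lower, to 0.35 on chromosome 6, where 23.2% were called higher. Among 475 windows of 5 Mb with at least 10 tested genes, the lowest medians were -1.34 at 20 to 25 Mb of chromosome 12 (28 genes, 15 lower and 0 higher), -1.15 at 35 to 40 Mb of chromosome 8 and -1.12 at 60 to 65 Mb of chromosome 13. The highest were 1.32 at 10 to 15 Mb of chromosome 2 (63 genes, 24 higher and 3 lower), 1.05 at 55 to 60 Mb of chromosome 6 and 1.03 at 135 to 140 Mb of chromosome 2. The first of these holds Vim and Sfmbt2, a Polycomb protein at 37.1, 21.9 and 19.1 CPM in M27H4 and 0.124 and 0.0617 CPM in M6. The chromosome 6 window holds Abcg2, a drug exporter at 52.2, 69.8 and 72.7 CPM in M27H4 and 0 and 0.558 CPM in M6. Gprin3 in the same window stood at 14.4, 38.9 and 51.7 CPM in M27H4 and 0.0621 and 0.247 CPM in M6. Several miRNA genes that lie inside Sfmbt2, at a mean of 0.190 CPM or less in M27H4, count among the 63 genes and the 24 higher. The lower genes of the chromosome 12 window included pseudogenes and noncoding RNAs at a mean of 2.63 CPM or less in M6. Windows are descriptions with no test.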

How the data were processed

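RNA of the M6, M27H4 and 3T3-L1 cultures was isolated with RNeasy columns, depleted of ribosomal RNA with Ribo-Zero Gold and turned into SureSelect strand-specific libraries, per the labels' protocols. The submitters' processing notes name cutadapt, HISAT2, StringTie, edgeR and the builds mm10 and GRCm38. Versions, annotation release and strand setting of the counting are not given in the sources used here. The deposited gene and transcript tables hold estimated counts in whole numbers for 48440 genes and 117667 transcripts, of which 48058 and 116824 matched GENCODE M21, leaving 0.0515% and 0.196% of the counts unmatched. The deposited tables of normalised values were not used, and 2 of their columns belong to no sample.

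Technical replicates, as named in the labels, were added up per biological replicate, which gave 14 biological replicates in 6 groups. Genes were tested with edgeR 4.0.16 in R 4.3.3 (filterByExpr, TMM factors, robust quasi-likelihood fit over all 6 groups, 8 residual degrees of freedom, Benjamini-Hochberg adjustment over 21237 genes, threshold 0.05). The biological coefficient of variation was 0.323. Differences of more than 2-fold were tested with glmTreat. SE was taken as the log2 difference divided by the root of F. Transcript shares, after an arcsine square root transform, were tested in limma 3.58.1, in genes with at least 50 counts in each of 10 replicates and transcripts with a mean share of at least 5% (5493 genes, 15710 transcripts, 6 residual degrees of freedom), with a Simes p per gene. Exon inclusion is the counts of transcripts that hold an exon over those of transcripts that hold or skip it. A transcript that skips an exon spans it with no overlapping exon. Exons needed at least 50 such counts in each control replicate. Promoters are RefSeq entries on GRCm38.p6. Folds against a line with no count use a floor of 3 counts over that line's libraries, which covers counting error only, as do all statements on low counts.

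The comparison, the gene lists and the rule for named genes were chosen with earlier results of these data known. Under that rule Esrp1, Esrp2, Esrp2-as, Cdh1, Vim, Zeb1, Trp53 and Rb1, the 12 largest differences in each direction, up to 4 members of each list with the smallest p, 8 genes by transcript share and 6 windows are named. Other list members, the Nras neighbours and the runs of neighbouring genes were chosen after their values were seen. Tested on simulated counts for this comparison (20216 genes), 9, 44, 48 and 48 of 50 genes changed 2, 4, 8 and 16-fold were recovered, and 172 of 200 genes with changed shares (5493 genes). Alternatives were other normalisations, filters and tools, fewer groups, a replicate block and leaving out each control replicate. A fit with only control replicate 1 of each line was added after seeing the data. Equal replicate numbers are not said by the labels to pair the lines. Some items that these rules give are not reported here.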

Additional observations from a re-analysis of the deposited data

How the results depend on the processing

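The counts of genes called higher or lower in M27H4 kept within 1.5 times of 3236 and 3184 under other normalisations, no filter on low counts, DESeq2 1.42.0 (3585 and 3631), limma voom (3350 and 3445), a fit of only the 2 control groups (2384 and 2506) and each control replicate left out (2428 to 3177 higher, 2667 to 2840 lower). Exceptions were 5046 genes higher when each column was a library of its own (repeat runs then count as samples), and 1876 genes higher (897 by more than 2-fold) with only control replicate 1 of each line, where the lone samples are assumed to vary like the other groups. Without M6 control 2 the median over all genes moved to 0.21. Transcript share calls were far less stable: 14 genes with a minimum of 200 counts, 13 with diffSpliceDGE, 6 with only the 2 control groups, 0 by limma with only control replicate 1 of each line (468 at an unadjusted p under 0.05) and 2 to 43 with each control replicate left out (2 without M6 control 1, 43 without M6 control 2). No label pairs the replicate numbers, and with only 2 numbers in common the deviations of equally numbered replicates correlated at 0.16 and 0.0315. With a replicate block over the 4 groups of both lines 3054 genes were higher and 3311 lower (2973 and 3492 in the treated libraries), and the share test called 5 genes. Of the 148 called genes under the naming rule, 141 kept their call with each control replicate left out. The others were Esrp2-as, Mcm2, Mybl2, Kdm5c, Vwf, Lyz2 and Ptprc, and the cause was not tested. Trp53, not called, ran from -0.18 to 0.090 with each control replicate left out and stood at 0.19 with only control replicate 1 of each line. The list median of matrix proteases turned to -0.30 without M27H4 control 1. The counts cannot resolve levels near 1% of another line in replicates that share an LR number with it.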
